A study of Mus musculus with 8 samples.

Results

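Of the 704 PRDM10 ChIP-seq peaks listed for mouse embryonic stem cells (mESCs), 213 lay away from promoters. These were the peaks that overlapped no promoter of any GENCODE vM21 transcript of any biotype, a promoter being the transcription start site (TSS) and the 1 kb upstream of it. They made up 152 of the 528 peaks of the list for ethanol-treated cells (28.8%, 95% Wilson interval 25.1 to 32.8%) and 61 of the 176 peaks of the list for cells treated with 4-hydroxytamoxifen (4-OHT) (34.7%, 28 to 41.9%). Among peaks with the highest reproducibility score, the 4-OHT share was 9 of 98 (9.18%, 4.91 to 16.5%). All cells were Prdm10F/F; Rosa26-CreERT2 mESCs, in which 4-OHT activates Cre and removes the floxed part of Prdm10. The control cells received the ethanol vehicle (EtOH), and the others 50 nM 4-OHT for 24 h, after which their genotype is labelled Prdm10del/del; Rosa26-CreERT2. Each treatment had 3 ChIP samples and 1 input, and the ChIP samples differed in antibody: 2 in-house rabbit polyclonals and the Bethyl antibody A303-204A. The deposited data analysed here hold 1 pooled peak list per treatment, so spread between replicates cannot be given. The study's methods give an approximate number of raw reads per library, but the lists hold no read counts, and no difference between lists was tested. Intervals on shares cover the sampling of peaks only.

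PRDM10 is a PR-domain protein with C2H2 zinc fingers that binds DNA in a sequence-specific manner. Transcription factors of this kind can occupy promoters, where transcription begins, and also elements inside introns or between genes, such as enhancers. A ChIP-seq peak marks where precipitated DNA exceeds the input. It does not by itself tell direct binding from other reasons for enrichment, and a list made after deletion of the target shows what the antibodies and peak caller return when less of the protein is present.

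The sequences that follow show how matches to a PRDM10 motif looked in EtOH peaks away from promoters, and they were chosen for holding it. PRDM10 peaks were searched for 2 nested patterns on both strands of repeat-masked sequence. The core has 6 fixed bases, TGGTNNNNNCC, where N is any base. The 14-base pattern contains the core and restricts the flanking and inner letters, so every match of it is also a match of the core. The probe that the study designed for gel shifts held the core but not the 14-base pattern. It is shown with the core in capitals:
WT probe: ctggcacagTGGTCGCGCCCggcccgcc

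The 14-base pattern occurred in 9 of the 26 EtOH peaks that lay away from promoters with a signal value above the list median, and 8 of them are shown. The other 17 lacked it, among them the peaks at Noct, Trpv4, Gpr108 and Junb, which ranked among the highest. The matches are in capitals, and each window is read from GRCm38 (mm10), 5′ to 3′, on the strand that carries the match. The windows lie in Fgf11 intron 1 (chr11:69800499-69800579, minus strand), the last exon of Ppfia3 (chr7:45339954-45339983, plus), Ptch1 intron 2 (chr13:63563317-63563397, plus), Prdm10 intron 1 (chr9:31280841-31280921, plus), Tacc1 intron 1 (chr8:25211766-25211846, minus), an intergenic interval near Gm14260 (chr2:168991234-168991314, plus) and Nhs intron 1 (chrX:161926479-161926559, plus).
Fgf11: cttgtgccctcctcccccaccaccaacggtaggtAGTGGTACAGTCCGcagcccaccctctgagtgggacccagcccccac
Ppfia3: tatgtataGGTGGTGCAGTCCGtagggcga
Ptch1: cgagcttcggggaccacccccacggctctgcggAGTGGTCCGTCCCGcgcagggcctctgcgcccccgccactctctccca
Prdm10: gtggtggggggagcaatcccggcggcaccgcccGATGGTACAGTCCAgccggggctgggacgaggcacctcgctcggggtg
Tacc1: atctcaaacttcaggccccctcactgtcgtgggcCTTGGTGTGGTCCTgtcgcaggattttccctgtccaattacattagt
near Gm14260: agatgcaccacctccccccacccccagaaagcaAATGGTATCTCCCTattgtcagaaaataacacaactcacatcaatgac
Nhs: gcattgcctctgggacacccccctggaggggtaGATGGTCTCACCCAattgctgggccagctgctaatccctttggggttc

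The eighth of these peaks held 3 matches, more than any other peak away from promoters in either list. It lay in intron 1 of Kdm6b, which encodes a histone H3K27 demethylase, and its whole interval is shown on the plus strand (chr11:69413226-69413524). All 3 matches were on the minus strand, so they read reverse-complemented here, and successive matches began 46 bp apart. Their distances from the summit were 30, 16 and 62 bp.
Kdm6b: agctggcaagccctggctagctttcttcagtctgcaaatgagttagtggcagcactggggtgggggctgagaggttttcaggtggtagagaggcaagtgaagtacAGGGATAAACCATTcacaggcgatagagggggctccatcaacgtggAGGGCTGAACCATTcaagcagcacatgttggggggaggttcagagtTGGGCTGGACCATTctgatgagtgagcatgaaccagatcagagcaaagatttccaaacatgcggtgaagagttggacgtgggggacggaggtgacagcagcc

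Strong EtOH peaks away from promoters were a small group, and most of the class was weak. Signal value here is the peak caller's enrichment of pooled ChIP over input, is comparable only within a list, and ran from 9.78 to 565 in the 152 EtOH peaks, with a median of 47.5. The 376 EtOH promoter peaks had a median of 208 and a range of 11.3 to 900. In rank order, peaks away from promoters made up 9 of the first 132 EtOH peaks (6.82%), 17 of the next 132, 45 of the third and 81 of the last (61.4%). Only 26 of the 152 had a signal value above the list median of 131, compared with 238 of the 376 promoter peaks. In the 4-OHT list the 61 peaks spanned 15.6 to 67.3 with a median of 41.2, none was among the first 44 ranks, and 4 were among the next 44. The 115 promoter peaks of that list had a median of 96.8 and reached 434.

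**Figure D1:**
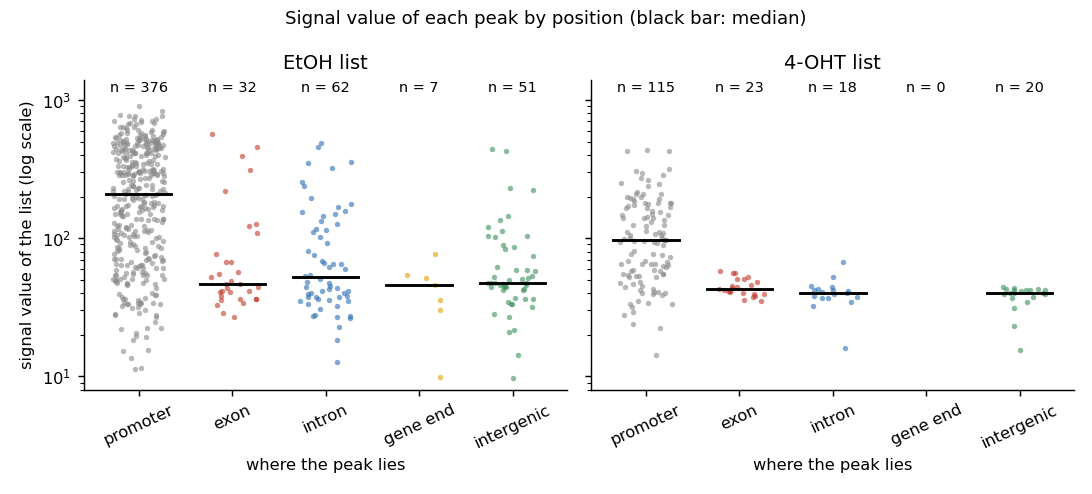
Signal value of every peak (log axis) by position, EtOH list left and 4-OHT list right; each point is 1 peak, black bars are medians and n counts peaks. In the EtOH list a few exonic, intronic and intergenic peaks reach the upper range of promoter peaks, while the 4-OHT peaks away from promoters all lie at or below 67.3.

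By position, 62 of the 152 EtOH peaks lay in introns (40.8%, 33.3 to 48.7%), 51 were intergenic (33.6%, 26.5 to 41.4%), 32 overlapped an exon (21.1%, 15.3 to 28.2%) and 7 lay within 1 kb downstream of a gene (4.61%, 2.25 to 9.20%). Of the exonic peaks, 16 touched coding sequence, 3 a 5′ UTR, 3 a 3′ UTR and 10 a non-coding exon. Among the 62 intronic peaks, 57 lay in protein-coding genes and 33 had their summit in intron 1. The 4-OHT list gave 23 exonic peaks of 61 (37.7%, 26.6 to 50.3%), 20 intergenic (32.8%, 22.3 to 45.3%) and 18 intronic (29.5%, 19.6 to 41.9%). No 4-OHT peak was at a gene end (0 of 61, interval 0 to 5.92%). The EtOH median signal values were 46.6 in exons, 51.9 in introns, 45.8 at gene ends and 47.4 between genes, with upper quartiles of 85.2, 123, 52.8 and 85.0. Signal was above the list median in 5 of 32 exonic peaks (15.6%, 6.86 to 31.8%), 15 of 62 intronic (24.2%, 15.2 to 36.2%), 0 of 7 at gene ends (interval 0 to 35.4%) and 6 of 51 intergenic (11.8%, 5.51 to 23.4%), and these intervals overlap. In the 4-OHT list the median signal values were 42.8, 40.3 and 40.01 for exons, introns and intergenic peaks. Signal was above that list's median in 3 of 23 exonic peaks (13%, 4.54 to 32.1%). The counts were 1 of 18 for intronic (5.56%, 0.988 to 25.8%) and 0 of 20 for intergenic peaks (interval 0 to 16.1%).

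The strongest peak of the class lay in exon 1 of Noct, a rhythmically expressed gene of the deadenylase family. It covered chr3:51224545-51224991, had a signal value of 565 (rank 31 of the EtOH list), and its summit lay 303 bp downstream of the Noct TSS, in a 5′ UTR. The core of this peak, which was not within 100 bp of the summit, is in capitals in the 30 bases at chr3:51224863-51224892, plus strand.
Noct: agccaccgcgTGGTAGCGCCCgctccgccg

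The next exonic peaks were at Gpr108, which encodes a membrane protein related to G protein-coupled receptors (454, rank 81), and Ppfia3, which encodes a synaptic scaffold of the liprin family (396, rank 111). The Gpr108 summit lay 221 bp downstream of the nearest TSS. The Ppfia3 summit lay in exon 30 of 30 of one transcript and 950 bp downstream of the TSS of another. The highest intronic signals were at Fgf11, an intracellular fibroblast growth factor homologue (490, rank 58), Trpv4, a cation channel of the TRP family (455, rank 80), and Ptch1, the Hedgehog receptor (353, rank 126). Their summits lay 1095, 2572 and 555 bp from the nearest TSS. Mapk8ip1, a scaffold of the JNK cascade, followed at 347 (rank 129) and Kdm6b at 320 (rank 140).

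Between genes, the highest signals were near Junb, an AP-1 subunit (441, rank 90, summit 1309 bp upstream of the TSS), at chr11:86875086-86875438 with Dhx40 as the nearest gene (424, rank 99, 67499 bp away) and upstream of Meis1, a homeobox factor (231, rank 189, 1503 bp). The interval near Dhx40 was the most remote of the strong peaks, since every other peak among the first 132 ranks had its summit within 2572 bp of a TSS. Its G and C content was 44.8%, and it held the core but not the 14-base pattern. At gene ends no signal was above the list median. The highest there were at the pseudogene Ear-ps5 (77.0), Serinc2 (53.9) and Psen2, which encodes presenilin 2 (51.8). The lowest peak of the class, at 9.78, was intergenic with its summit 42368 bp from Nufip1.

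Prdm10 itself carried an exonic peak at chr9:31280644-31280945 (signal value 312, rank 146), with the summit in intron 1 of Prdm10 and 188 bp downstream of the TSS of the lincRNA gene 4930517E14Rik. It overlapped no 4-OHT peak. A further EtOH peak overlapped it, but touched the promoter of 4930517E14Rik and so lay outside the class.

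A small distance decided some memberships. The 3 EtOH peaks closest to a promoter without touching one were at Maoa (21 bp from its promoter, signal value 120), Trp53 (27 bp from a promoter of the neighbouring Wrap53, 62.0) and Dcps (38 bp, 46.6). The 3 that touched one by the fewest bases were at Pip5k1c (3 bp, 772), Rmnd5a (8 bp, 151) and Rax (16 bp, 70.3). In the 4-OHT list the nearest outside were at Gm13245 (25 bp, 40.04), Mir7000 in Mapk8ip1 (414 bp, 56.1) and Trpm8 (771 bp, 42.0), and the narrowest overlaps inside were at Meis1 (84 bp, 67.5), Noct (85 bp, 27.98) and Pwwp2a (116 bp, 34.0). RefSeq places a promoter under 15 of the 152 EtOH peaks (9.87%, 6.07 to 15.6%), among them Gpr108, Kdm6b, Meis1, Scamp1 and the one at Prdm10, and under 0 of the 61 4-OHT peaks (interval 0 to 5.92%). For those 15 peaks the label "away from promoters" holds for GENCODE only.

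Summits lay from 165 to 93359 bp from a TSS in the EtOH class and from 595 to 108402 bp in the 4-OHT class. The median distance from summit to the nearest TSS was 5345 bp in the EtOH class (quartiles 1571 and 14101 bp) and 8254 bp in the 4-OHT class (4413 and 16514 bp). In the EtOH class 10 summits lay within 500 bp of a TSS and 77 lay more than 5 kb away. For the 4-OHT class the corresponding counts were 0 and 44 of 61. Signal was higher close to a TSS in the EtOH class: the median was 174 within 500 bp (n = 10), 50.3 from 500 bp to 5 kb (n = 65), 43.8 from 5 to 20 kb (n = 50) and 47.6 beyond 20 kb (n = 27). These peaks share the list and its normalization, and the trend was not tested. In the 4-OHT class the medians were 43.3 from 500 bp to 5 kb (n = 17), 40.04 from 5 to 20 kb (n = 33) and 41.3 beyond 20 kb (n = 11).

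**Figure D2:**
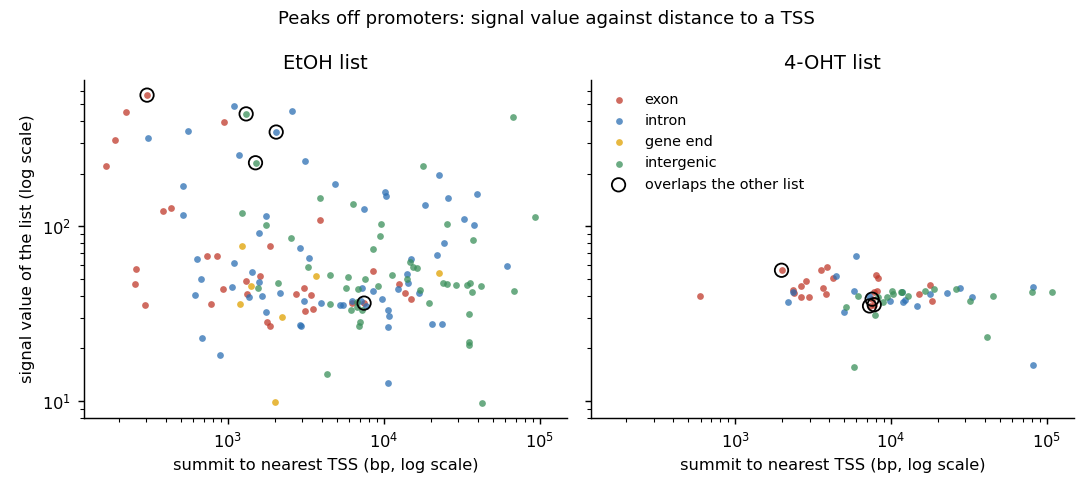
Signal value (log axis) of each peak away from promoters against the distance of its summit from the nearest TSS (bp, log axis), EtOH list left and 4-OHT list right; colours give the class and black rings mark peaks that overlap a peak of the other list. EtOH peaks within 500 bp of a TSS have a median of 174, and the 4-OHT peaks stay between 15.6 and 67.3 at every distance.

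Among the 32 exonic and 62 intronic EtOH peaks, 4 lay in a gene with an EtOH peak at its promoter. Of all 152, the nearest TSS belonged to such a gene for 8 (5.26%), 7 lay within 10 kb of a promoter peak, and 78 were more than 1 Mb from one. In the 4-OHT list none of the 23 exonic and 18 intronic peaks lay in such a gene, and 57 of all 61 were more than 1 Mb from a promoter peak of that list. No share for random positions was computed, and the lists differ in their number of promoter peaks. These counts therefore do not show that the class was remote from promoter peaks. Counted after merging overlapping rows, 1 gene, Mroh2a, held 2 or more separate EtOH regions of the class. The 4-OHT peaks inside genes fell in 27 genes, of which 2, Mroh2a and Trpm8, held 2 or more separate regions.

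The core was present in 64 of the 152 EtOH peaks (42.1%, 34.5 to 50.1%) and in 262 of the 376 EtOH promoter peaks (69.7%, 64.9 to 74.1%), beside 61.7% of all EtOH peaks. Among all tiles of 430 bp in the genome, 430 bp being the commonest EtOH width, 9.90% of those away from promoters and 14.1% of those at promoters held it. Both patterns come from a motif that the study found de novo in these EtOH peaks. A higher share in them than in tiles is therefore not independent support for binding. Peaks were also richer in G and C than most tiles. At 40 to 45% G and C, 3 of 17 EtOH peaks of the class (17.6%, 6.19 to 41%) and 10.2% of tiles away from promoters held the core. The tile share lies inside that interval. At 45 to 50% these were 16 of 38 (42.1%, 27.9 to 57.8%) and 13.05%, and at 50 to 55% they were 24 of 54 (44.4%, 32 to 57.6%) and 17.2%. The 14-base pattern was present in 30 of the 152 (19.7%, 14.2 to 26.8%), in 140 of the 376 promoter peaks (37.2%, 32.5 to 42.2%), in 32.2% of all EtOH peaks and in 0.734% of the tiles away from promoters. The 32 matches in the class were 32 different 14-base sequences.

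In both the class and promoter peaks the share with a core was higher among the stronger peaks. Above the list median it was 18 of 26 in the class (69.2%, 50.0 to 83.5%) and 178 of 238 in promoter peaks (74.8%, 68.9 to 79.9%), and these intervals overlap. At or below the median it was 46 of 126 (36.5%, 28.6 to 45.2%) and 84 of 138 (60.9%, 52.5 to 68.6%). By position the core was in 14 of 32 peaks in exons, 27 of 62 in introns, 3 of 7 at gene ends and 20 of 51 between genes. The 14-base pattern was in 19 of 62 intronic peaks (30.6%, 20.6 to 43.0%), 5 of 32 exonic (15.6%, 6.86 to 31.8%), 6 of 51 intergenic (11.8%, 5.51 to 23.4%) and 0 of 7 at gene ends (interval 0 to 35.4%), and these intervals overlap. By distance of the summit from a TSS, 8 of 10 peaks held a core within 500 bp (interval 49 to 94.3%), 25 of 65 from 500 bp to 5 kb (38.5%, 27.6 to 50.6%), 16 of 50 from 5 to 20 kb (32%, 20.8 to 45.8%) and 15 of 27 beyond 20 kb (55.6%, 37.3 to 72.4%). The core nearest the summit lay a median of 52.5 bp away in the class (n = 64) and 58.0 bp away in promoter peaks (n = 262). The GC box GGGCGG, a common promoter element, was in 42 of the 152 (27.6%, 21.1 to 35.2%), 231 of the 376 promoter peaks (61.4%) and 2.21% of tiles away from promoters. Being all G and C, it was more frequent in tiles of higher G and C content, at 6.75% for 50 to 55% and 14.2% for 55 to 60%. A pattern for the insulator protein CTCF was in 2 of the 152 (1.32%, 0.362 to 4.67%), 3 of the 376 promoter peaks (0.798%, 0.272 to 2.32%), 0.947% of all EtOH peaks and 0.156% of tiles away from promoters. In tiles it was 0.430% at 50 to 55% G and C and 0.665% at 55 to 60%.

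Strong peaks without the core included Trpv4, Junb and Meis1. A window around the summit is shown for the first 2 (chr5:114647421-114647521 and chr8:84979977-84980077) and the whole interval for Meis1 (chr11:19020453-19020629), all on the plus strand. Capitals mark a GC box, which is on the minus strand and is held by Meis1 alone of the 3 windows. No match says only that these letters are not in the window.
Trpv4: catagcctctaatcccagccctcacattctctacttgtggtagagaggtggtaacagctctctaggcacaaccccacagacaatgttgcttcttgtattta
Junb: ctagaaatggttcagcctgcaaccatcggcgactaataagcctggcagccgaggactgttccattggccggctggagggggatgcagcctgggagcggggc
Meis1: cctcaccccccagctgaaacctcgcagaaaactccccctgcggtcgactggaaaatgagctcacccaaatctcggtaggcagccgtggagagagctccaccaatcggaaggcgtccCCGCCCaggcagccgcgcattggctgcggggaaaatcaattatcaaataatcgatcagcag

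In the 4-OHT class the core was in 19 of 61 peaks (31.1%, 20.9 to 43.6%), in 95 of 115 promoter peaks (82.6%, 74.7 to 88.5%) and in 64.8% of all 4-OHT peaks. All 61 peaks had the list's commonest width, and 23.7% of tiles of that width away from promoters held the core, a value inside the interval of the class. Bases marked as repeats could not match, and tiles were not matched to peaks for repeat content. Without repeat masking the share of the class was 44.3% (32.5 to 56.7%), and no such tile share was computed. At 40 to 45% G and C it was 4 of 28 peaks (14.3%, 5.70 to 31.5%) and 24.0% of tiles, at 45 to 50% it was 6 of 13 (46.2%, 23.2 to 70.9%) and 32.03%, and at 50 to 55% it was 6 of 8 (interval 40.9 to 92.9%) and 41.9%. Of the 19 peaks with a core, 9 lay in the chromosome 1 interval in Mroh2a and Trpm8 that held 14 peaks of the class. The 14-base pattern was in 3 of the 61 (4.92%, 1.69 to 13.5%), 55 of the 115 promoter peaks (47.8%), 33% of all 4-OHT peaks and 1.96% of the tiles. The 3 peaks overlapped one another in Mroh2a and shared the same match, which is shown in capitals at chr1:88245984-88246064 (plus strand). Within 100 bp of the summit the core was present in 5 of 61 peaks (8.20%, 3.55 to 17.8%) and in 71 of 115 promoter peaks (61.7%). The median distance from summit to nearest core was 193 bp (n = 19) in the class and 54.0 bp (n = 95) in promoter peaks.
Mroh2a: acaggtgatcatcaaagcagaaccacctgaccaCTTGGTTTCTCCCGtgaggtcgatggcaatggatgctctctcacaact

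**Figure D3:**
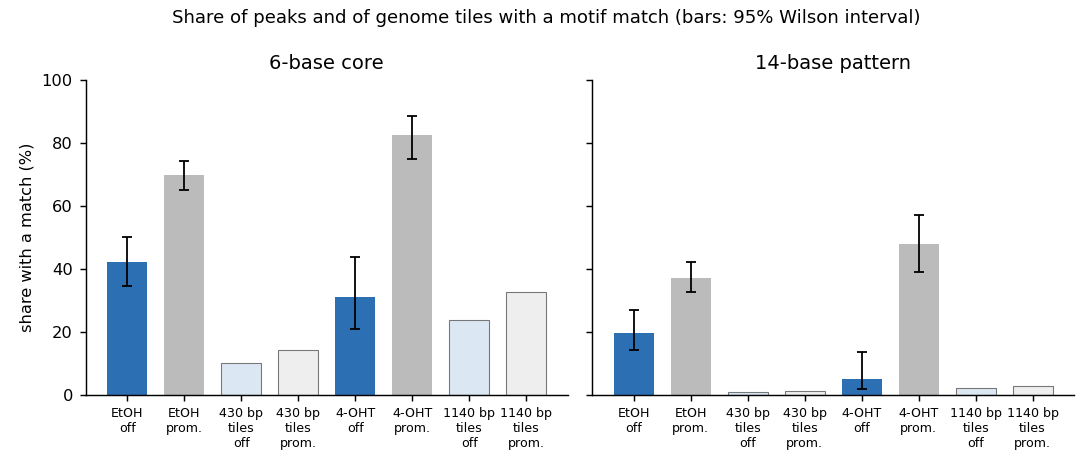
Share of peaks (solid bars, with 95% Wilson intervals) and of genome tiles (pale bars) with at least 1 match of the core (left) or the 14-base pattern (right), off promoters and at promoters (prom.), with tiles of each list's commonest width. EtOH peaks off promoters lie between their tiles and the promoter peaks for both patterns (42.1% and 19.7%), while the 4-OHT interval for the core includes the 23.7% of its tiles. The motif behind both patterns was derived from the EtOH peaks. Repeats were masked, and tiles were not matched to peaks for repeat content.

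Median base composition differed between the class and promoter peaks in both lists, with overlapping ranges. The median G and C content was 51.9% in the EtOH class and 62.1% in EtOH promoter peaks, and 43.9% and 61.3% in the 4-OHT list. The median ratio of observed to expected CpG, which is high in CpG islands, was 0.271 in the EtOH class and 0.777 at promoters, and 0.181 and 0.796 in the 4-OHT list. A ratio above 0.6 was found in 21 of 152 EtOH peaks (13.8%, 9.22 to 20.2%) and 290 of 376 promoter peaks (77.1%). In the 4-OHT class it was found in 1 of 61, the peak at Mapk8ip1 (0.643). The EtOH peaks of the class with such a ratio included Noct (0.945), Meis1 (0.818), Trp53 (0.908) and Maoa (0.879). Summits fell in bases marked as repeats in 14 of 152 EtOH peaks (9.21%, 5.57 to 14.9%) and 20 of 376 EtOH promoter peaks (5.32%, 3.47 to 8.07%), and these intervals overlap. Among 4-OHT peaks they did so in 12 of 61 (19.7%, 11.6 to 31.3%) and 4 of 115 promoter peaks (3.48%, 1.36 to 8.60%), beside 34.3% of all genome bases.

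**Figure D4:**
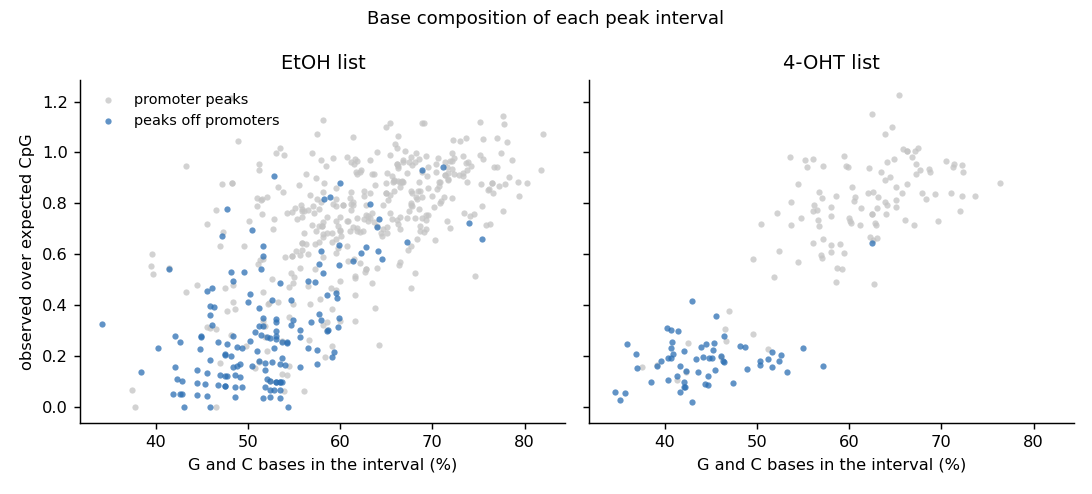
G and C content (%) and observed over expected CpG of each peak interval, EtOH list left and 4-OHT list right; grey points are promoter peaks and blue points peaks off promoters. The EtOH class extends into the composition of promoter peaks, while 1 of the 61 4-OHT peaks, at Mapk8ip1, has a CpG ratio above 0.6.

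The 2 lists shared few places away from promoters. Of the 152 EtOH peaks, 5 shared 1 bp or more with a 4-OHT peak (3.29%, 1.41 to 7.47%), compared with 102 of 376 promoter peaks (27.1%, 22.9 to 31.8%) and 20.3% of all EtOH peaks. The intervals of the first shares did not overlap. Signal differed too, so the counts were set side by side above the list median, where 4 of 26 peaks of the class (15.4%, 6.15 to 33.5%) and 93 of 238 promoter peaks (39.1%, 33.1 to 45.4%) overlapped a 4-OHT peak, and these intervals overlap. From the other side, an EtOH peak lay under 4 of the 61 4-OHT peaks (6.56%, 2.58 to 15.7%), compared with 105 of 115 promoter peaks (91.3%, 84.7 to 95.2%) and 61.9% of all 4-OHT peaks. Of these 4, 3 overlapped one another and the same EtOH peak in Mroh2a. The share was 1 of 47 (2.13%) without the chromosome 1 stretch and 2 of 9 (22.2%, 6.32 to 54.7%) at the highest score.

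The 5 shared EtOH peaks were at Noct, Junb, Mapk8ip1, Meis1 and Mroh2a. At Noct an EtOH signal value of 565 stood beside 4-OHT peaks of 131 (rank 43 of its list) and 27.98 (rank 170). At Junb the values were 441 and 76.8, with summits 3 bp apart. At Mapk8ip1 they were 347 and 56.1 with summits 56 bp apart, and at Meis1 231 and 67.5 with summits 16 bp apart. At Noct, Junb and Meis1 the wider 4-OHT interval reached a promoter, so the same place counted as a promoter peak in the 4-OHT list. Away from promoters, Mroh2a was the only place where an EtOH peak of low signal (36.4, rank 457) overlapped 4-OHT peaks, which had values of 35.04, 35.6 and 38.3. Among EtOH promoter peaks at or below the list median, 9 of 138 overlapped a 4-OHT peak (6.52%, 3.47 to 11.9%). Values are on separate scales, and no ratio between lists is given. The highest EtOH signals without a 4-OHT peak were at Fgf11 (490), Trpv4 (455) and Gpr108 (454).

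The remaining 57 4-OHT peaks overlapped no peak of the EtOH list. The study reports no peaks in PRDM10-deficient cells that were missing from control cells. Whether EtOH cells had signal at these 57 places cannot be told from the lists, and gain after deletion was not tested. The strongest of the 57 lay in introns or exons on chromosome 1: Trpm8, a cold-sensitive channel (67.3, chr1:88296739-88297878), and Mroh2a, a HEAT repeat gene (58.2 and 56.3). Other intronic peaks were at Abca13, an ABC transporter gene (52.3), and Myo1d, an unconventional myosin gene (45.01). The highest intergenic signals were nearest to Glrp1 (44.0), Neil3 (43.9) and Gm45832 (42.9). The lowest of the class was 15.6, on chromosome 11 with its summit 5789 bp from Kremen1. Around the Trpm8 summit the sequence was largely a repeat of AGGG, and the Abca13 interval had 39.1% G and C. Both windows are on the plus strand (chr1:88297259-88297359 and chr11:9197814-9197914) and contain neither the core nor a GC box.
Trpm8: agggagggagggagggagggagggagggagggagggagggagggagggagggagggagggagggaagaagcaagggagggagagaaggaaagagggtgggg
Abca13: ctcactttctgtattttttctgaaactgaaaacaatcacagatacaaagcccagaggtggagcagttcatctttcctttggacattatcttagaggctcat

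Chromosomes 1, 6, 8 and 11 held 57 of the 61 4-OHT peaks away from promoters (93.4%, 84.3 to 97.4%). These chromosomes make up 22.7% of the genome's bases, and they held 36 of 115 4-OHT promoter peaks (31.3%, 23.5 to 40.3%), 50 of 152 EtOH peaks away from promoters (32.9%, 25.9 to 40.7%) and 83 of 376 EtOH promoter peaks (22.1%, 18.2 to 26.5%). Chromosome 1 alone held 27 (44.3%), chromosome 8 held 13, chromosome 11 held 12 and chromosome 6 held 5. The other 4 were on chromosomes 2, 4, 13 and 16, and the chromosome 2 peak was the one at Mapk8ip1. The 4 chromosomes were picked after their counts were seen, and the number of copies of each chromosome in these cells was not analysed here. Several 4-OHT rows overlapped one another. Counted as merged regions, 44 of 48 were on the same 4 chromosomes, and 11 regions held 24 rows. Such repeated rows were seen at Mroh2a, Trpm8, Nup93 (a nuclear pore subunit), Hmmr, Smarce1, Rbl2, Myo1d and an intergenic interval nearest to 1700054K19Rik. EtOH peaks of the class merged from 152 rows to 145 regions, and no region held more than 2 rows.

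**Figure D5:**
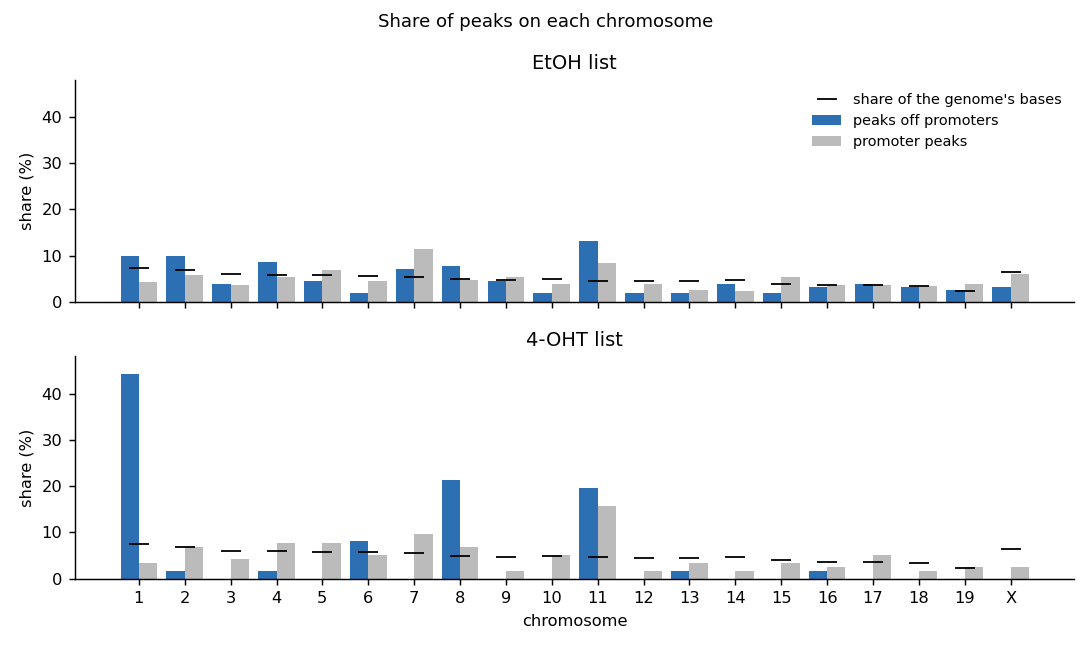
Share of peaks (%) on each chromosome for peaks off promoters (blue) and promoter peaks (grey), EtOH list above and 4-OHT list below; black dashes give each chromosome's share of the genome's bases. In the 4-OHT list chromosome 1 holds 44.3% of the peaks off promoters and 3.48% of the promoter peaks.

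One place gathered peaks of both lists. A stretch is defined here as at least 3 peaks of a list away from promoters, each no more than 100 kb from the next. The 4-OHT list had 1 stretch, with 14 peaks over 83.5 kb (chr1:88233662-88317142) in Mroh2a and Trpm8, with signal values from 35.04 to 67.3, of which 3 overlapped an EtOH peak. The EtOH list also had 1, with 4 peaks over 36.1 kb (chr1:88230344-88266464) in Mroh2a and the neighbouring Hjurp, which encodes a chaperone of the centromeric histone. Its signal values ran from 27.0 to 36.4. Neither stretch contained a promoter peak of its own list. The 14 4-OHT peaks collapsed to 7 merged regions. Without the peaks of both lists that lay inside the 4-OHT stretch, which held 3 of the 4 EtOH peaks, 4 of the 149 other EtOH peaks (2.68%) and 1 of the 47 other 4-OHT peaks (2.13%, 0.377 to 11.1%) overlapped the other list, the latter being Mapk8ip1.

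Quality scores of the lists differed between the classes of peak. The IDR score, which rises with reproducibility between pseudo-replicates to a cap of 1000, stood at that cap for 136 of 152 EtOH peaks of the class (89.5%, 83.6 to 93.4%) and 368 of 376 promoter peaks (97.9%). In the 4-OHT list it was at the cap for 9 of 61 (14.8%, 7.96 to 25.7%) and 89 of 115 promoter peaks (77.4%, 68.9 to 84.1%). The peak caller's FDR score was below 0 for 18 of 152 EtOH peaks of the class (11.8%, 7.62 to 17.9%). It was below 0 for 19 of 376 EtOH promoter peaks (5.05%, 3.26 to 7.76%), and these intervals overlap, and for 7.01% of all EtOH peaks. In the 4-OHT list it was below 0 for 53 of 61 peaks of the class (86.9%, 76.2 to 93.2%), beside 23 of 115 promoter peaks (20%). These scores, the fixed width, the lower G and C content and the chromosome 1 stretch moved together with the 4-OHT class, and their part in its makeup was not tested. The 9 4-OHT peaks at the cap included Mapk8ip1 and the strongest at Trpm8 and Mroh2a.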

How the data were processed

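PRDM10 ChIP-seq was analysed from 2 deposited peak lists, 1 per treatment, each pooled over 3 antibodies. The authors aligned reads to mm10 with BWA 0.7.13, used Picard 2.10.6 and SAMtools 1.2, called peaks with SPP, removed blacklisted regions and kept peaks by IDR at 0.05 on pooled pseudo-replicates. The deposited reproducibility value is a score from IDR with a cap of 1000, and another deposited score stands for the FDR. The deposited signal value is the peak caller's enrichment. The lists carry no read counts, so the depth behind each peak and its precision cannot be given from them; the study's methods state only an approximate number of raw reads per library.

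Peaks were joined to the 141767 transcripts of GENCODE vM21 and to the RefSeq sequence of GRCm38.p6, whose lower-case bases were taken as repeats. Classes had the priority exon, intron, gene end (1 kb downstream) and intergenic. Lists were compared by overlap of 1 bp. Motif shares were set against all genome tiles of the lists' commonest widths. The 14-base pattern was read by eye from the study's logo, and the study derived that motif from its EtOH peak set. Shares have 95% Wilson intervals, and no test was run, since each list is 1 pooled sample. Class assignment, overlap, merging and the search for the core were tested on simulated data with known answers. Peaks were named by a rule: in each list the 3 highest signals of each class, the lowest, the 3 highest with and without overlap, the 3 on each side of the promoter rule, stretches, and those with the 14-base pattern above the list median. One more peak met the last rule and has no sequence shown. Others were named after their values were seen. The members and lists were chosen with earlier results of these data known. Alternatives were other promoter, gene and overlap rules, score and repeat filters, and merging. Python 3.11.15, numpy 2.4.6, scipy 1.17.1 and matplotlib 3.10.9 were used.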

Additional observations from a re-analysis of the deposited data

How the results depend on the processing

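The 10 shares and medians of the class were recomputed under 46 alternatives listed at the start and 9 chosen after seeing the data. Of these 55 values, 40 stayed inside the main value's 95% interval and 15 did not. No paired analysis was possible because the result comes from no test. With promoters of 1 kb on both sides of a TSS, the EtOH share off promoters was 23.7%. By the summit alone the 4-OHT share was 43.2%. With the highest IDR score only, the 4-OHT share was 9.18%, its intergenic share 11.1% (n = 9), its median signal value 50.9, its share with the core 44.4% and its share overlapping an EtOH peak 22.2%. The core within 100 bp of the summit was in 29.6% of EtOH and 8.20% of 4-OHT peaks, the 14-base pattern in 19.7% and 4.92%, and the core without repeat masking in 44.3% of 4-OHT peaks. Asking for 50% of both peaks left 0% shared in either list, since the shared EtOH peaks cover less than that of the wider 4-OHT peaks. Without the longest stretch on chromosome 1, 2.13% of 4-OHT peaks overlapped an EtOH peak. The widths fixed the outcome of the 50% rule in advance, and the causes of the other shifts were not tested. Leaving out a sample could not be tried, since the lists are pooled, and depth sets no limit that can be given.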
